A study of Mus musculus with 24 samples.

Results

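A set of 9 genes that mark Paneth cells, out of 54146 genes counted, were followed through RNA sequencing of mouse intestinal organoids, which are miniature epithelial cultures grown from intestinal crypts. The 9 genes were chosen by name: Lyz1 and Lyz2, Mmp7, Ang4, Itln1, and the alpha-defensins Defa17, Defa22, Defa24 and Defa30. The study asked what the organoids express when the Mediator kinases CDK8 and CDK19 are removed genetically or inhibited. The 24 libraries form 8 groups of 3. In the genotype experiment the groups were WT, Cdk8-/-, Cdk19-/- and the double knockout, all kept for 7 days in 600 nM 4-hydroxytamoxifen, WT included. The organoids came from Cdk8 lox/lox mice, and Cre-mediated removal of exon 2 of Cdk8 depended on Villin-CreERT2, a tamoxifen-inducible recombinase driven by an epithelial promoter. Cdk19 was disrupted with a lentiviral CRISPR guide against exon 1, after which single organoids were picked and expanded as clones. In the Senexin B experiment, organoids that the study describes as WT (the labels give no genotype) received the CDK8/CDK19 inhibitor Senexin B, at 10 µM per the study's methods, or its solvent DMSO, for 16 h or 24 h. The study calls the triplicates biological, but no source used here says whether they were separate mice or cultures, so the p-values measure the spread between these libraries.

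Paneth cells sit at the base of small intestinal crypts, between the stem cells, and release granules of antimicrobial proteins into the crypt lumen. They arise from the secretory lineage, where Notch signalling is low, and their maturation depends on Wnt signalling acting through TCF factors and on SOX9. In culture they are also a source of Wnt and Notch ligands for the neighbouring stem cells. Mediator kinases act on the Mediator complex that links transcription factors to RNA polymerase II.

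The libraries were first checked against their labels. The genotype labels name the tissue as intestinal organoids but also carry the cell line name 4T1, a mammary tumour line. The epithelial genes Vil1 and Epcam were high in all 8 groups, with mean normalised CPM (counts scaled to a common library size) of 800 to 1257 for Vil1 and 1191 to 1577 for Epcam, and Paneth cell genes were abundant. Gene-level counts sum over all exons, so they do not test a deletion of 1 exon. Cdk8 counts were 631, 629 and 512 in WT, 680, 840 and 660 in Cdk8-/- and 693, 669 and 664 in the double knockout. Cdk19 counts were 707, 729 and 695 in WT and 724, 432 and 428 in Cdk19-/-, so the library labelled Cdk19-/- replicate 1 was at the WT level. In the double knockout Cdk19 counts were 395, 361 and 796, and replicate 3 was above every WT library. Esr1, whose sequence is partly shared by CreERT2, had counts of 1, 4 and 6 in WT and 4, 3 and 3 in Cdk19-/-, against 284, 295 and 325 in Cdk8-/- and 385, 323 and 307 in the double knockout. The presence of the recombinase, the organoid line and the loss of Cdk8 therefore cannot be told apart in these groups. Each genotype library held 14636861 to 15473180 counted reads and each Senexin B library 27075937 to 28405118. The 2 experiments were normalised separately, so levels are compared only within each.

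Lyz1 encodes lysozyme, the classic Paneth cell enzyme that cuts bacterial cell walls, and lies on the minus strand of GRCm38 chromosome 10 from 117287797 to 117292868. Its tandem copy Lyz2, at 117277331 to 117282321 on the same strand, is the lysozyme of macrophages and other myeloid cells. The sequences just before the 2 start sites are shown because the genes are near-identical copies with very different counts here. Each line gives the 120 bases before the start in the RefSeq table for GRCm38.p6, at chr10:117292869-117292988 and chr10:117282273-117282392, 5′ to 3′ on the minus strand.
Lyz1: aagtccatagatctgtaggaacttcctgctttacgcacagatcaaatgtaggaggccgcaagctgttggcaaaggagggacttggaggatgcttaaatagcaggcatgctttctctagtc
Lyz2: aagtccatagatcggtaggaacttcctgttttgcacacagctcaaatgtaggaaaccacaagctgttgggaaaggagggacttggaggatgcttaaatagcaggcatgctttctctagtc
Within this stretch 111 of 120 bases were identical (92.5%), whereas 41 of the 130 bases further upstream in the window were (31.5%). The transcripts were 96.0% identical. Despite the shared proximal sequence, Lyz2 gave 0 to 16 counts in each of the 24 libraries, and Lyz1 gave 4062 or more. Pooled by group, Lyz2 made up 0.00853% to 0.0723% of the counts of the pair. The highest share was in Cdk19-/- (10 of 13833 counts, exact Clopper-Pearson 95% interval 0.0347% to 0.133%) and the lowest in DMSO at 16 h (4 of 46884, 0.00232% to 0.0218%). These intervals cover counting error only. Lyz2 did not pass the filter on low counts in either experiment, which leaves 8 of the 9 genes in every comparison below. Its counts were 3, 2 and 0 in WT, 4, 4 and 6 in Cdk8-/-, 4, 1 and 5 in Cdk19-/- and 4, 16 and 9 in the double knockout. The WT libraries reached 3 counts and those of Cdk8-/- and the double knockout began at 4, so their separation rests on very few counts. Among genes that passed the filter, 14.9% in Cdk8-/- and 18.7% in the double knockout had every library above every WT library. Without the filter, the log2 fold change of Lyz2 against WT was 1.36 in Cdk8-/- (adjusted p = 0.551) and 2.39 in the double knockout (adjusted p = 0.0412). In that setting 2894 of 29805 genes passed in the double knockout. The double knockout value was 1.62 with the unstranded column (adjusted p = 0.0415) and 2.50 by the DESeq2 Wald test (adjusted p = 0.062). Against Cdk19-/- it was 1.51 with the unstranded column (adjusted p = 0.0396) and 1.48 without the filter (adjusted p = 0.186). The call of Lyz2 thus depends on the setting.

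The 4 alpha-defensin genes lie in a cluster on GRCm38 chromosome 8, all on the plus strand: Defa30 from 21134642 to 21135598, Defa22 from 21162277 to 21163249, Defa17 from 21655780 to 21656735 and Defa24 from 21734494 to 21735471. Alpha-defensins, called cryptdins in the mouse, are small cationic peptides that disrupt microbial membranes and are cut from inactive precursors by matrilysin, the product of Mmp7. The coding sequences were alike enough to matter for counting. The lines below show bases 217 to 276 of each 282-base coding sequence, the 60-base stretch without gaps where the 4 genes differed most, read from the GENCODE vM21 transcripts. Capitals mark bases unlike Defa24.
Defa24: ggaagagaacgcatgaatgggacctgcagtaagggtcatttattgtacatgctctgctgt
Defa30: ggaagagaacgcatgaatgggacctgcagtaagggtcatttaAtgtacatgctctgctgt
Defa17: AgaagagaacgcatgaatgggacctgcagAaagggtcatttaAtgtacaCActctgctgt
Defa22: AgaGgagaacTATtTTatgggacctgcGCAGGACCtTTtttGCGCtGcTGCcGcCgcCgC
Even here Defa30 differed from Defa24 at 1 base and Defa17 at 5, while Defa22 differed at 29. Over whole transcripts Defa24 and Defa30 were 98.2% identical, Defa17 was 95.5% to 95.7% identical to both, and Defa22 was 84.1% to 84.2% identical to the other 3. The study's methods, written for the tamoxifen-treated organoids, give reads of 50 bases. A read that matches several genes is left out of the deposited counts. Of all 50-base windows in each gene's transcripts, 71.9% were found in no other gene for Defa24, 47.6% for Defa30, 25.1% for Defa22 and 8.05% for Defa17. The corresponding shares were 83.9% for Lyz1, 84.6% for Lyz2, 92.6% for Mmp7, 95.3% for Ang4 and 99.0% for Itln1. For 50-base reads, counts of the defensins, Defa17 most of all, therefore cover only part of their reads, and levels between defensins are uncertain. The read length of the Senexin B libraries was not checked. Strand made a further difference: in the genotype libraries the column used held 94.5% of the stranded counts of Defa17, 68.0% of those of Defa30 and 59.1% of those of Defa22, against 45.0% to 53.3% for the other 6 genes, and in the Senexin B libraries it held 91.6% to 98.7% for all 9. Defa2, Defa20, Defa31, Defa32, Defa33, Defa37 and Gm7849 had no such window.

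**Figure D1:**
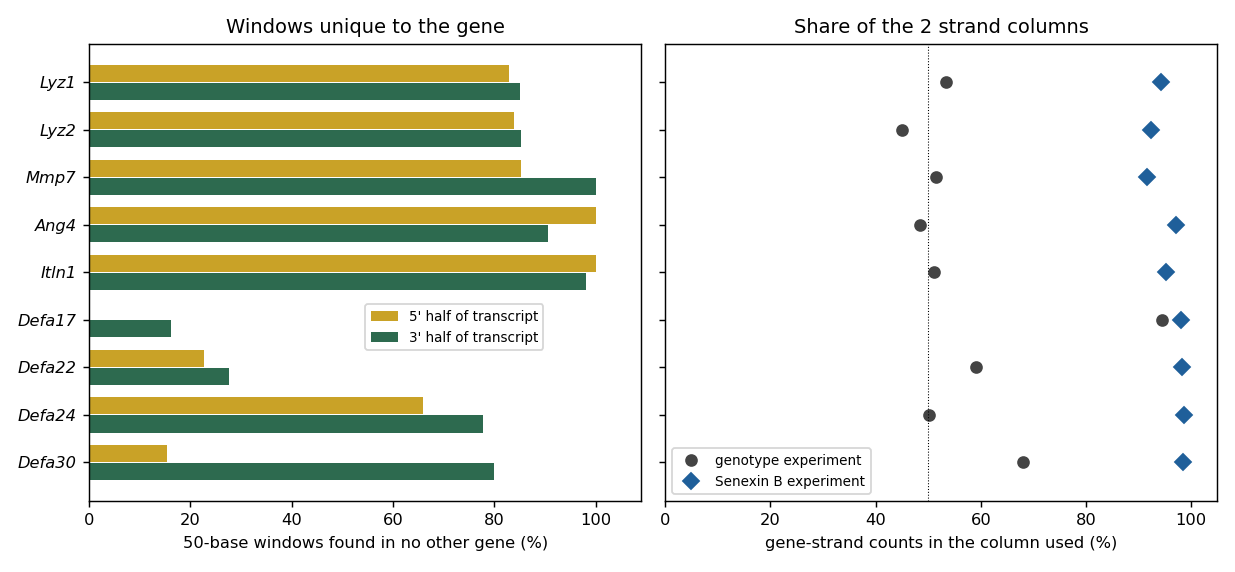
Left, per cent of 50-base windows found in no other gene (x axis) for each of the 9 genes (y axis), with 1 bar for the 5′ and 1 for the 3′ side of the transcript, split at its middle. Right, per cent of the counts of both strand columns that lie in the column used, with 1 symbol per experiment and a dotted line at 50%. Defa17 has 0.0% unique windows on its 5′ side and 16.1% on its 3′ side, and Defa17, Defa30 and Defa22 have the highest strand shares of the genotype experiment.

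RefSeq promoter windows, 250 bases before to 50 after the start on GRCm38.p6, were held for 7 of the 9 genes, all but Defa17 and Defa24. Since Paneth cell maturation depends on Wnt signalling, the core letters that TCF/LEF factors recognise, ATCAAAG, were searched on both strands. They were found in 1225 of 32851 promoters (3.73%) and in 3 of the 7 windows, those of Defa22, Defa30 and Mmp7. The stretches that hold them are shown on the plus strand, 5′ to 3′, with ATCAAAG in capitals, at chr8:21162137-21162236, chr8:21134480-21134579 and chr9:7692078-7692107.
Defa22: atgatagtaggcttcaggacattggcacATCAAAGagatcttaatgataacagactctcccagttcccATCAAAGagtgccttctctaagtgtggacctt
Defa30: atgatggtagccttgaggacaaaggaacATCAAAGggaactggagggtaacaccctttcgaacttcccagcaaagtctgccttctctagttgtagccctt
Mmp7: gcccctgtcaggaaacATCAAAGtagctct
The Defa22 stretch holds the letters at -112 and -72 from the start and the Defa30 stretch at -142 only, although 75 of the 100 bases were identical. In Mmp7 they began at position 5 after the start. RefSeq gives Mmp7 another start further downstream, from which this same site lies at -247. Among 14 other alpha-defensins with a promoter window, 11 held ATCAAAG. The TATA box letters TATAAA were in 13.6% of all promoters, in Defa22, Defa30 and Mmp7, and in 13 of the 14 other alpha-defensins. The E-box letters CAGCTG (16.3% of promoters) were in Lyz1 and Lyz2 and in 1 of the 14, those of CAGATG (17.2%) were in Ang4 and Defa22 and in 10 of the 14, and the CDX letters TTTATG (11.9%) were in Itln1 and Lyz2 and in none of the 14. A match of letters is a description and does not show binding.

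Levels per kilobase of exon gave the order of the 9 genes within a group. They were not corrected for the share of windows unique to each gene, which was 8.05% for Defa17 and 25.1% for Defa22. The ranks of the defensins against the other genes are therefore uncertain. In WT, Defa24 was the highest at 1110 CPM per kb (SD 228, n = 3), followed by Itln1 at 455 (SD 66.5), Defa30 at 401 (SD 69.5) and Lyz1 at 267 (SD 3.04). Ang4 was at 101, Defa17 at 96.7, Mmp7 at 68.4, Defa22 at 46.2 and Lyz2 at 0.086. For 3 pairs of neighbours the values overlapped between libraries, namely Itln1 and Defa30, Ang4 and Defa17, and Defa17 and Mmp7. In DMSO at 16 h Defa24 was again the highest at 2420 CPM per kb (SD 457, n = 3), Defa30 was at 1240, Itln1 at 648 and Lyz1 at 444, and Defa22 and Mmp7 were lowest of the 8 genes tested at 58.2 and 42.3. There the only overlapping neighbours among the 8 were Defa17 and Ang4.

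Loss of Cdk8 came with higher levels of all 8 Paneth cell genes. Lyz1 stood at 333, 340 and 338 normalised CPM in the WT libraries and at 1516, 1344 and 1209 in Cdk8-/-. Every Cdk8-/- library was thus above 3 times every WT library, and the fitted log2 fold change was 2.01 (SE 0.218, 4.02-fold, adjusted p = 0.000481, edgeR). Across all genes, 2.79% rose at this threshold, and 14.9% had every Cdk8-/- library above every WT library; among the Paneth cell genes 8 of 8 rose and 8 of 8 did not overlap. The median log2 fold change was 1.56 for the 8 genes and 0.0102 for all genes tested.

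Mmp7, the protease that activates the defensins, lies on chromosome 9 from 7692090 to 7699585. It stood at 74.3, 90.3 and 54.6 normalised CPM in WT and at 282, 144 and 190 in Cdk8-/-. The groups did not overlap, but the highest Cdk8-/- library was nearly 2 times the lowest (log2 fold change 1.49, SE 0.332, adjusted p = 0.0253). Leaving out any WT library, or Cdk8-/- replicate 1 or 3, gave adjusted p-values of 0.057 to 0.104.

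Ang4, a ribonuclease with bactericidal activity on chromosome 14 (51763878 to 51773590, minus strand), went from 71.8, 85.6 and 57.8 normalised CPM in WT to 273, 177 and 215 in Cdk8-/-. The lowest Cdk8-/- library was above the highest WT library by a factor of over 2, and the fitted change was 3.08-fold (95% interval of the log2 fold change 1.04 to 2.21, adjusted p = 0.00693). Itln1, intelectin, a lectin that binds microbial glycans (chromosome 1, 171518122 to 171535294, minus strand), went from 507, 600 and 450 to 1702, 1310 and 1336. This was a 2.79-fold rise (log2 fold change 1.48, SE 0.217, adjusted p = 0.0032).

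Among the defensins, Defa22 stood at 20.0, 18.1 and 20.0 normalised CPM in WT and at 107, 82.0 and 60.7 in Cdk8-/-. This was the highest fitted change of the 8 genes, with a log2 fold change of 2.10 (SE 0.304, adjusted p = 0.00289), although its interval overlapped that of Lyz1. Defa17 went from 40.9, 46.9 and 27.4 to 121, 121 and 115, and here the Cdk8-/- libraries differed by less than those of WT (3.11-fold, adjusted p = 0.00358). Defa30 went from 170, 180 and 128 to 479, 351 and 354 (2.48-fold, adjusted p = 0.00831). Defa24, the most abundant, went from 499, 543 and 360 to 1365, 957 and 891, the smallest change of the 8 (log2 fold change 1.20, SE 0.256, adjusted p = 0.0216). Without any 1 WT library, or without Cdk8-/- replicate 1, the adjusted p of Defa24 was 0.0561 to 0.0827. In bulk RNA a change in the number of Paneth cells and a change in RNA per Paneth cell cannot be told apart.

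In Cdk19-/- no Paneth cell gene passed the test. Across all 15602 genes tested 0 passed (0.0%), while 1691 had an unadjusted p under 0.05, none of them one of the 8. Without Cdk19-/- replicate 1, 521 of 15932 genes passed (3.27%), and the DESeq2 Wald test on all libraries gave 298, again with none of the 8. Lyz1 stood at 274, 293 and 348 normalised CPM, overlapping WT (log2 fold change -0.15, 95% interval -0.604 to 0.312). Itln1 stood at 652, 598 and 455 and Defa24 at 532, 558 and 409, both overlapping WT. The widest departure was Defa22, at 16.9, 35.5 and 33.8 against 20.0, 18.1 and 20.0 in WT, with a log2 fold change of 0.57 (95% interval -0.0876 to 1.224, adjusted p = 0.542). Its 2 higher libraries were replicates 2 and 3, those with lower Cdk19 counts. An analysis chosen after seeing the data left out both libraries whose Cdk19 counts were at or above the WT level. Defa22 was then the only 1 of the 8 genes to pass, with a log2 fold change of 0.85 (adjusted p = 0.0398), while 666 of 15821 genes passed (4.21%). The intervals of the 8 genes do not exclude changes smaller than those seen in Cdk8-/-.

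In the double knockout all 8 genes were higher than in WT, against 9.41% of all genes. Groups did not overlap for 6 of the 8, against 18.7% of all genes, and the median log2 fold change was 1.38, against -0.00899 over all genes. Lyz1 stood at 928, 1988 and 1511 normalised CPM (4.38-fold above WT, log2 fold change 2.13, SE 0.219, adjusted p = 0.000235). Defa22 stood at 53.4, 66.9 and 103 (3.85-fold, adjusted p = 0.00183) and Defa17 at 83.9, 164 and 89.7 (2.93-fold, adjusted p = 0.00186). Double knockout replicate 1 was the lowest of the 3 for 8 of 8 genes, so the genes moved together between libraries of this group.

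For the other genes replicate 1 was likewise the lowest. Ang4 stood at 121, 291 and 220 (2.94-fold, adjusted p = 0.00292), Itln1 at 798, 1488 and 1258 (2.28-fold, adjusted p = 0.00377) and Defa30 at 231, 452 and 338 (2.13-fold, adjusted p = 0.00718). Mmp7, at 87.9, 186 and 230, and Defa24, at 526, 1084 and 893, overlapped WT through replicate 1. Their log2 fold changes were 1.20 (adjusted p = 0.0276) and 0.84 (adjusted p = 0.0411), and both lost the call when 1 of several libraries was left out, with adjusted p-values of 0.0727 to 0.0924 for Mmp7 and 0.0635 to 0.149 for Defa24. The Defa24 call was also lost when only these 2 groups were fitted (adjusted p = 0.0644).

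**Figure D2:**
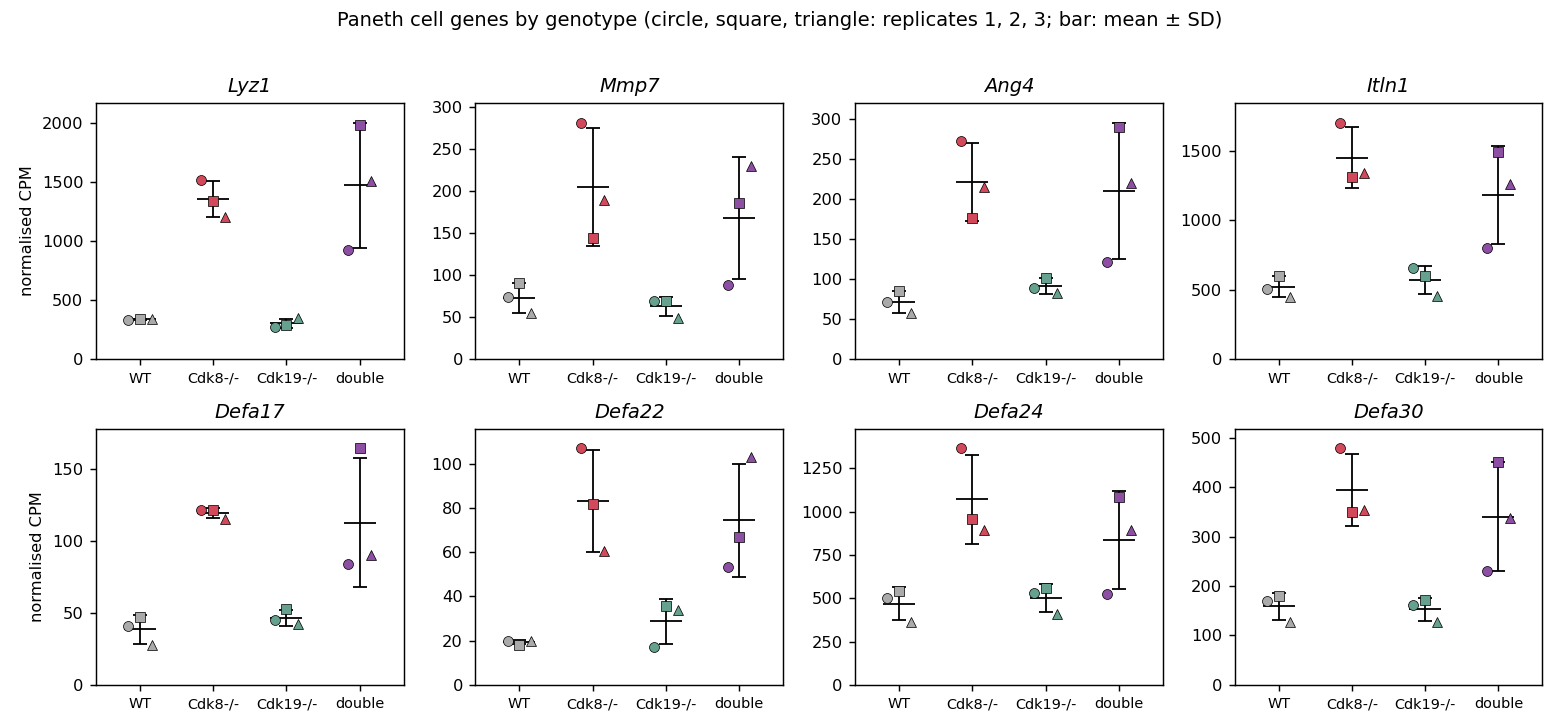
Normalised CPM on linear axes that start at 0, 1 panel for each of the 8 Paneth cell genes that passed the filter, by genotype group ("double" is the double knockout). Points are single libraries (circle, square and triangle for replicates 1, 2 and 3) and bars are mean ± SD of 3 libraries. The Cdk8-/- points lie above all WT points in 8 of 8 panels, the Cdk19-/- points overlap WT in each, and the double knockout has its circle lowest in each.

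The double knockout and Cdk8-/- did not differ past the threshold for any of the 8 genes, and 4 of all genes differed (0.0256%). That share depended on 1 library and on the tool: without Cdk8-/- replicate 3, 839 of 15879 genes differed (5.28%), and the DESeq2 Wald test gave 402, while the 8 genes again did not pass in either. The log2 differences ran from -0.36 for Defa24 (95% interval -0.91 to 0.189) to 0.12 for Lyz1 (-0.334 to 0.577), with a median of -0.187, and no interval excluded 0. Against Cdk19-/-, 7 of 8 genes were higher in the double knockout and the same number did not overlap, against 14.4% and 19.4% of all genes. Lyz1 showed the greatest difference (4.84-fold, adjusted p = 8.34e-05), and Defa24 missed the threshold (log2 fold change 0.74, adjusted p = 0.0503). Defa24 passed at 0.72 to 0.74 under 5 alternatives, namely DESeq2 size factors (adjusted p = 0.0481), no filter (0.00236), at least 10 counts in every library (0.0499), the unstranded column (0.0448) and the DESeq2 Wald test (0.0153), and at 0.98 without double knockout replicate 1 (0.00926). The difference between the double knockout and the sum of the single knockouts on the log2 scale passed for none of the 8 genes and for 0.0256% of all genes (2.93% without Cdk19-/- replicate 1, again none of the 8). By the DESeq2 Wald test 481 of 14776 genes passed, and without the filter 566 of 29805. Without Cdk8-/- replicate 3, 392 of 15879 passed, and none of the 8 did in these settings. The difference ran from -0.73 for Defa22 (95% interval -1.629 to 0.176) to 0.27 for Lyz1 (-0.378 to 0.914). Without the 2 libraries at the WT level of Cdk19, Defa22 fell short of the sum by 1.31 (adjusted p = 0.0274), when 728 of 15821 genes passed (4.6%). These genotype comparisons share their control libraries and are not independent of each other.

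**Figure D3:**
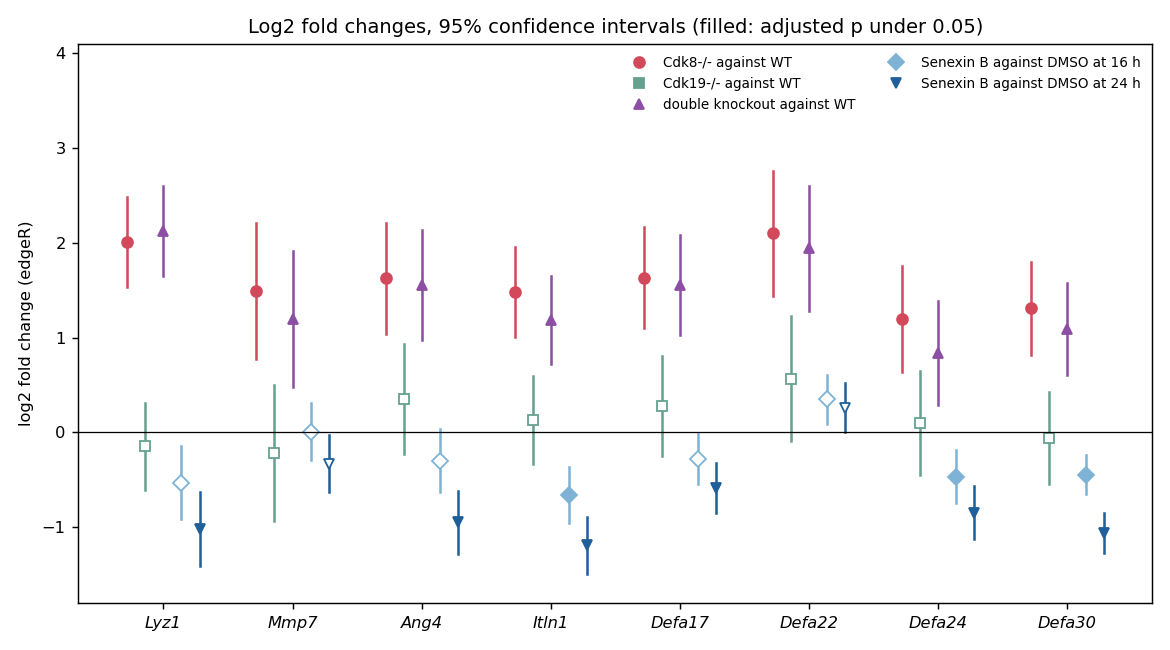
Fitted log2 fold changes (y axis, linear in log2 units) for each Paneth cell gene (x axis) in 5 comparisons, with 95% confidence intervals as vertical lines. Filled symbols passed an adjusted p threshold of 0.05. Values in Cdk8-/- and the double knockout lie between 0.84 and 2.13, the intervals for Cdk19-/- span 0, and Senexin B at 24 h gives values from -1.19 to 0.26.

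Other genes of the Paneth cell programme were read beside the 9. Of 36 other alpha-defensin names, 24 were in the tables and 11 passed the filter in the genotype experiment. Of these, 9 rose in Cdk8-/- (median log2 fold change 1.99) and 6 in the double knockout (median 1.3), when 2.79% and 9.41% of all genes rose. Defa29 showed a log2 fold change of 3.04 in Cdk8-/- (adjusted p = 0.0005) and 2.55 in the double knockout (adjusted p = 0.000773), and Defa35 one of 3.20 in the double knockout (adjusted p = 0.00236). None of the 11 passed in Cdk19-/-, where Defa29 stood at -1.26 (adjusted p = 0.185). The summed level of the 24 genes was 150 to 182 normalised CPM in WT, 579 to 863 in Cdk8-/-, 77.4 to 167 in Cdk19-/- and 436 to 819 in the double knockout. These genes share reads with one another and with the 4 defensins above.

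Of 16 other granule genes, 12 were tested, and 3 rose in Cdk8-/-, when 2.79% of all genes rose. Mptx2, a mucosal pentraxin, showed a log2 fold change of 3.50 (SE 0.715, adjusted p = 0.0179), Pla2g2a, a bactericidal phospholipase, one of 1.66 (adjusted p = 0.0247) and Clps, colipase, one of 1.10 (adjusted p = 0.00724). In the double knockout 4 of the 12 rose, when 9.41% of all genes rose, among them Mptx2 (3.12, adjusted p = 0.0117), Clps (1.16, adjusted p = 0.00195) and the stress-induced regulator Nupr1 (1.01, adjusted p = 0.0136). Median log2 fold changes of this list were 0.556 and 0.716, lower than those of the 8 genes.

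The 21 genes of Paneth cell fate and niche moved in both directions. In Cdk8-/-, 4 rose and 2 fell, when 2.79% of all genes rose and 2.36% fell. Cd24a, a surface marker of Paneth cells, rose by 0.65 on the log2 scale (adjusted p = 0.0117) and the growth factor gene Tgfa by 0.50 (adjusted p = 0.033), while the Wnt receptor gene Fzd5 fell by 0.62 (adjusted p = 0.0239). In the double knockout 1 rose and 5 fell, when 9.41% of all genes rose and 7.9% fell. Sox9, required for Paneth cells to form, fell by 0.87 (adjusted p = 0.00288) and the receptor gene Notch1 by 0.71 (adjusted p = 0.00331), and Tgfa rose by 0.64 (adjusted p = 0.00429). Markers of other lineages also moved. Of 8 goblet cell markers 2 rose in each of the 2 groups, with Muc2, the main gut mucin, at 0.98 in Cdk8-/- (adjusted p = 0.0071) and 1.36 in the double knockout (adjusted p = 0.00055). Of 10 enterocyte markers 2 rose in Cdk8-/- and 6 in the double knockout, and their summed level was 8053 to 8691 normalised CPM in WT, 10738 to 11599 in Cdk8-/- and 13771 to 18938 in the double knockout. Of 7 stem cell markers 1 fell in Cdk8-/- and 4 in the double knockout, with Lgr5 down by 0.86 (adjusted p = 0.00801) and 1.23 (adjusted p = 0.00055). None of 7 enteroendocrine or 5 tested tuft cell markers passed in Cdk8-/-, and Pou2f3 and Dclk1, both of tuft cells, fell in the double knockout. The summed level of 7 myeloid markers was 30.9 to 52.4 normalised CPM over the genotype libraries, with the macrophage marker Adgre1 at 0 in all 3 groups other than the double knockout, and that of 5 stromal markers was 0.859 to 3.49. Ptprc and Itgam, of leukocytes and myeloid cells, stood at 2.16 (adjusted p = 0.0807) and 1.42 (adjusted p = 0.0643) in the double knockout. Of 5 intestinal epithelium markers none passed in Cdk8-/-, while in the double knockout Krt20, a keratin of differentiated cells, rose by 1.88 (adjusted p = 0.0026), Vil1 rose by 0.41 (adjusted p = 0.0269) and Cdx2 fell by 0.35 (adjusted p = 0.0158).

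These markers also moved in the double knockout against Cdk19-/-, when 14.4% of all genes rose and 11.0% fell. Of 8 goblet cell markers 6 rose, among them Muc2 by 2.07 (adjusted p = 3.01e-05) and Zg16 by 2.82 (adjusted p = 0.000192), and of 10 enterocyte markers 9 rose. Of 7 stem cell markers 5 fell, with Lgr5 down by 1.73 (adjusted p = 5.2e-05). Krt20 and Vil1 rose by 3.21 (adjusted p = 0.00013) and 0.59 (adjusted p = 0.00275), and Cdx2 fell by 0.29 (adjusted p = 0.0274). Of 7 enteroendocrine markers Gcg rose and Neurog3 fell, and of 5 tuft cell markers Pou2f3 fell. Of 5 tested myeloid markers Ptprc rose by 3.31 (adjusted p = 0.0197) and Itgam by 2.44 (adjusted p = 0.00667), while Cd68, Cd14 and Csf1r stood at -0.02, 0.05 and 0.15 and did not pass. The summed myeloid level was 31.4 to 38.8 normalised CPM in Cdk19-/- and 30.9 to 43.1 in the double knockout. The part of these other cell types in the changes of the Paneth cell genes, Lyz2 included, was not tested.

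With Senexin B, 3 of the 8 genes fell at 16 h and 6 at 24 h, and none rose past the threshold. At 16 h 3 of 8 were lower than in DMSO at the threshold, against 3.39% of all genes, and 3 of 8 had every Senexin B library below every DMSO library, against 12.6%. The median log2 fold change was -0.373. Itln1 stood at 601, 835 and 781 normalised CPM in DMSO and at 482, 523 and 399 with Senexin B, without overlap, and fell by 0.66 on the log2 scale (SE 0.138, adjusted p = 0.00912). Defa30 stood at 445, 524 and 513 and then 369, 392 and 326 (fell by 0.45, adjusted p = 0.0114). Defa24 stood at 795, 1138 and 1113 and then 759, 796 and 643, overlapping by 1 library (fell by 0.47, adjusted p = 0.0411).

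The other genes at 16 h did not pass. Lyz1 stood at 427, 657 and 599 in DMSO and 412, 427 and 327 with Senexin B, with a log2 fold change of -0.53 (adjusted p = 0.0901). Ang4 was at -0.30 (adjusted p = 0.277), Defa17 at -0.28 (adjusted p = 0.193) and Mmp7 at 0.01 (95% interval -0.293 to 0.31). Defa22 had the opposite sign, at 22.0, 25.8 and 25.4 in DMSO and 33.8, 34.5 and 24.9 with Senexin B (log2 fold change 0.35, adjusted p = 0.0993). With the replicate number as a block, 5 of 8 passed, adding Lyz1 (adjusted p = 0.035) as lower and Defa22 (adjusted p = 0.0429) as higher, when 14.8% of all genes passed in either direction. Without Senexin B replicate 3, which was the lowest of its group for 8 of 8 genes, Itln1, Defa24 and Defa30 lost the call (adjusted p = 0.0533, 0.162 and 0.0645) and Defa22 gained it (log2 fold change 0.48, adjusted p = 0.0231). Defa24 also lost it without DMSO replicate 2 or 3 or any other Senexin B replicate (adjusted p = 0.0702 to 0.148) and when only these 2 groups were fitted (adjusted p = 0.0837).

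At 24 h 6 of 8 fell, against 12.7% of all genes, and 7 of 8 did not overlap in that direction, against 22.1%. The median log2 fold change was -0.898. Itln1 stood at 890, 837 and 799 normalised CPM in DMSO and 447, 326 and 332 with Senexin B, a 2.29-fold fall (log2 fold change -1.19, SE 0.139, adjusted p = 6.81e-05). Lyz1 stood at 637, 609 and 594 and then 407, 258 and 244, a 2.02-fold fall (adjusted p = 0.00123). Ang4 stood at 145, 165 and 150 and then 87.2, 80.4 and 71.2, a 1.93-fold fall (adjusted p = 0.000706). In all 3 genes the highest treated library was below the lowest DMSO library.

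Of the 4 defensins 3 fell as well. Defa30 stood at 680, 609 and 618 in DMSO at 24 h and 320, 331 and 263 with Senexin B (2.09-fold, adjusted p = 9.02e-06), and Defa24 at 1263, 1182 and 1183 and then 724, 729 and 563 (1.8-fold, adjusted p = 0.00046). Defa17 stood at 74.9, 81.0 and 80.9 and then 57.8, 49.4 and 50.8 (1.5-fold, adjusted p = 0.00355). Defa22 did not follow: it stood at 27.3, 32.0 and 31.0 in DMSO and 39.9, 36.2 and 32.2 with Senexin B, so every treated library was above every DMSO library, with a log2 fold change of 0.26 (95% interval 0.00521 to 0.519, adjusted p = 0.12). In the coding stretches shown above, Defa22 is the one that differs from Defa24 at 29 of 60 bases. The part of this in its direction was not tested. Mmp7 stood at 59.6, 60.1 and 58.1 and then 51.7, 46.9 and 42.8 (log2 fold change -0.33, adjusted p = 0.0943). With the replicate number as a block Mmp7 also passed (adjusted p = 0.0249), which makes 7 of 8, when 36.9% of all genes passed in either direction. Mmp7 passed as well without the filter (adjusted p = 0.0199) and when only these 2 groups were fitted (adjusted p = 0.00917). Over all genes, 4276 of 28413 and 4605 of 15006 passed there.

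**Figure D4:**
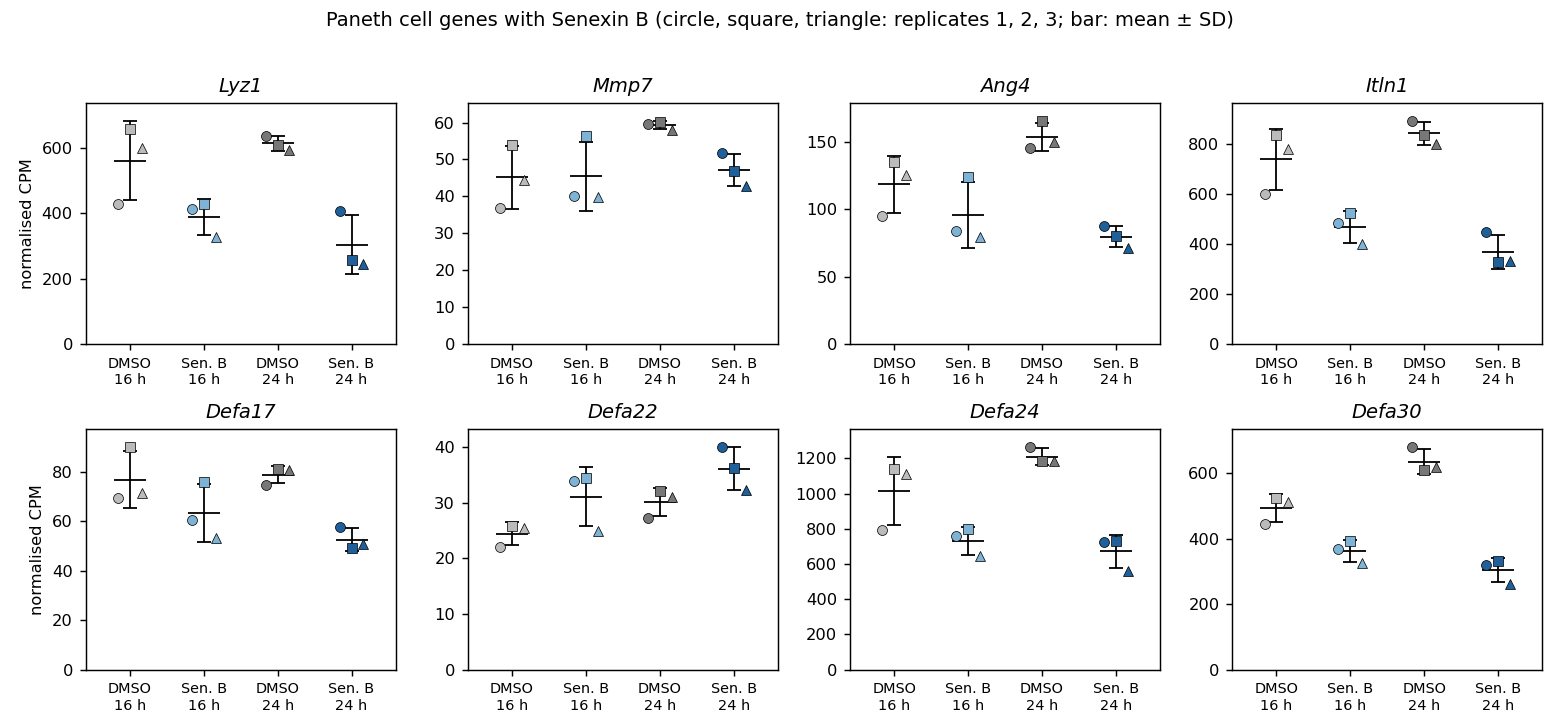
Normalised CPM on linear axes that start at 0, 1 panel for each of the 8 Paneth cell genes that passed the filter, in DMSO and Senexin B ("Sen. B") at 16 h and 24 h. Points are single libraries (circle, square and triangle for replicates 1, 2 and 3) and bars are mean ± SD of 3 libraries. At 24 h the Senexin B points lie below all DMSO points for 7 of 8 genes and above them for Defa22.

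In the main edgeR fit the Senexin B effect at 24 h did not differ from that at 16 h past the threshold for any of the 8 genes, and 0.0% of all genes passed. Unadjusted p-values were under 0.05 for 3 of the 8 and for 1995 of all genes. Ang4 gave a difference of -0.65 (95% interval -1.119 to -0.179, adjusted p = 0.284), Defa30 one of -0.62 (-0.909 to -0.323, adjusted p = 0.232) and Itln1 one of -0.53 (-0.951 to -0.118, adjusted p = 0.303). Defa30 passed by the DESeq2 Wald test (adjusted p = 0.01), when 67 of 11887 genes passed. Without the filter, Defa30 (adjusted p = 0.00244), Ang4 (0.0181) and Itln1 (0.0401) passed in edgeR, when 121 of 28413 genes passed. In DMSO alone, Defa30 rose from 16 h to 24 h (log2 fold change 0.36, adjusted p = 0.0287), when 4.52% of all genes rose. This call was lost when only the 2 DMSO groups were fitted (adjusted p = 0.0584) and without any 1 of 4 libraries, replicates 1 and 3 of each time (adjusted p = 0.0561 to 0.114). The other 7 genes did not pass in the main edgeR fit, with Mmp7 at 0.39 (adjusted p = 0.0835) and Ang4 at 0.38 (adjusted p = 0.125). Both passed without the filter (adjusted p = 0.01 and 0.0136) and with the replicate block (0.0163 and 0.0262), when 1862 of 28413 and 3281 of 15467 genes passed. Mmp7 also passed by the DESeq2 Wald test (adjusted p = 0.0434), when 2258 of 12989 genes passed. Without replicate 2 at 16 h it passed in edgeR (adjusted p = 0.0276), when 2084 of 15750 genes passed. At 16 h DMSO replicate 1 was the lowest and replicate 2 the highest of the group for 8 of 8 genes. Markers of other lineages also moved in DMSO from 16 h to 24 h, when 699 of 15467 genes rose and 1020 fell. Gcg rose by 0.99 (adjusted p = 0.0109), Chgb by 0.52 (0.0151), Clca1 by 0.47 (0.0373) and the stromal gene Pdgfra by 1.44 (0.0124). Fabp1 fell by 0.51 (adjusted p = 0.00209) and Ascl2 by 0.30 (0.0204). The part of these in the rise of Defa30 was not tested.

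Of the other alpha-defensins, 14 passed the filter in the Senexin B experiment. None passed the test at 16 h, and 6 fell at 24 h (median log2 fold change -0.328), when 12.7% of all genes fell, among them Defa26 (fell by 0.74, adjusted p = 0.000901), Gm14851 (fell by 0.60, adjusted p = 0.000479) and Defa5 (fell by 0.51, adjusted p = 0.00711). Of 12 other granule genes 2 rose at 16 h, when 4.36% of all genes rose. At 24 h 3 rose and 5 fell, when 14.8% of all genes rose and 12.7% fell. Colipase (Clps) fell by 0.85 (adjusted p = 0.0025) and the lipase-related gene Pnliprp2 by 0.82 (adjusted p = 3.09e-05). Those that rose were Reg3b by 1.94 (adjusted p = 0.00739), Nupr1 by 0.84 (adjusted p = 0.000124) and Reg3g by 0.63 (adjusted p = 0.0351).

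Of the 21 fate and niche genes, 4 rose and 3 fell at 16 h, when 4.36% of all genes rose and 3.39% fell, and 5 rose and 4 fell at 24 h, when 14.8% rose and 12.7% fell. Spdef, which drives maturation of goblet and Paneth cells, rose by 0.43 (adjusted p = 0.0159) and 0.47 (adjusted p = 0.00326), and the Notch ligand gene Dll1 rose by 0.44 at 24 h (adjusted p = 0.000783) while Notch1 fell by 0.49 (adjusted p = 0.00162). Cd24a rose at 24 h, by 0.35 (adjusted p = 0.0135), and stood at 0.21 at 16 h (adjusted p = 0.203). Markers of other lineages moved at 16 h as well. Of 8 goblet cell markers 4 rose, with Clca1 up by 0.85 (adjusted p = 0.00127) and Zg16 by 0.55 (adjusted p = 0.00134), and their summed level was 2874 to 3673 normalised CPM in DMSO and 2875 to 3241 with Senexin B. Of 10 enterocyte markers 2 rose and 1 fell, with Lct up by 2.30 (adjusted p = 0.00104) and Sis down by 0.73 (adjusted p = 0.0138). Of 7 stem cell markers Slc12a2 rose by 0.61 (adjusted p = 0.00529) and Lgr5 fell by 0.47 (adjusted p = 0.0285). Of 7 enteroendocrine markers 3 rose and 1 fell, with Gcg up by 2.11 (adjusted p = 2.35e-05). Of the 4 myeloid markers tested Cd14 rose by 0.59 (adjusted p = 0.00657), and the summed level of the 7 was 17.9 to 19.6 in DMSO and 25.4 to 26.4 with Senexin B. None of the 5 tuft cell or 5 intestinal epithelium markers passed at 16 h.

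Of 8 goblet cell markers 5 rose and 1 fell at 24 h, with Zg16 up by 1.08 (adjusted p = 3.62e-06) and Fcgbp down by 0.51 (adjusted p = 0.00746). Their summed level was 3474 to 3956 normalised CPM in DMSO at 24 h and 2996 to 3375 with Senexin B. Of 7 stem cell markers 1 rose and 2 fell at 24 h: Slc12a2 rose by 0.44 (adjusted p = 0.0128), and Lgr5 fell by 0.97 (adjusted p = 0.000112) and Tnfrsf19 by 0.66 (adjusted p = 0.00781). Of 10 enterocyte markers 4 rose and 1 fell, with the lactase gene Lct up by 3.64 (adjusted p = 4.53e-06) and the sucrase-isomaltase gene Sis down by 0.93 (adjusted p = 0.00124). The summed level of 7 myeloid markers was 19.8 to 21.1 normalised CPM in DMSO at 24 h and 35.3 to 48.4 with Senexin B, with Adgre1 at 0. Of the 4 myeloid markers tested 2 rose at 24 h, Cd14 by 1.24 (adjusted p = 1.04e-05) and Csf1r by 0.80 (adjusted p = 0.0498), while Itgam stood at -0.73 (adjusted p = 0.138) and Cd68 at -0.45 (adjusted p = 0.0747). Of 5 tuft cell markers 3 rose at 24 h, Avil by 0.91 (adjusted p = 0.000468), Dclk1 by 0.46 (adjusted p = 0.0214) and Pou2f3 by 0.40 (adjusted p = 0.0354). Of 7 enteroendocrine markers 3 rose and 1 fell, with Gcg up by 2.57 (adjusted p = 6.66e-07), Cck up by 0.90 (adjusted p = 0.00356) and Neurog3 down by 0.42 (adjusted p = 0.00357). Of 5 intestinal epithelium markers Krt20 fell by 0.82 (adjusted p = 0.0152) and Cdx1 rose by 0.24 (adjusted p = 0.045). The part of these other genes in the fall of the Paneth cell genes was not tested.

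Side by side, Lyz1 was 4.02-fold above WT in Cdk8-/- and 2.02-fold below DMSO with Senexin B at 24 h, and Itln1 was 2.79-fold above and 2.29-fold below. Ang4, Defa17, Defa24 and Defa30 likewise rose in the one and fell in the other. Defa22 was 4.29-fold above WT and stood 1.2-fold above DMSO without passing (adjusted p = 0.12), and Mmp7 was 2.81-fold above WT and stood 1.26-fold below DMSO without passing (adjusted p = 0.0943). The summed level of the 9 genes was 1436 to 1905 normalised CPM in WT, 4372 to 5846 in Cdk8-/-, 1547 to 1880 in Cdk19-/- and 2829 to 5720 in the double knockout. It was 3515 to 3776 in DMSO at 24 h and 1600 to 2134 with Senexin B. The labels describe the Senexin B libraries as rRNA-depleted total RNA but also repeat for them the tamoxifen treatment and poly(A) selection of the genotype experiment, so how the experiments differed in preparation is uncertain. The difference in direction between them was not tested.

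The 8 genes varied together from library to library. Over the 12 genotype libraries the 28 pairwise correlations of log2 CPM ran from 0.827 to 0.988 with a median of 0.936. Over the 12 Senexin B libraries they ran from -0.425 to 0.98 with a median of 0.854, and the low values were those of Defa22, at -0.425 to 0.357 with the other 7. These libraries share their groups, and the correlations contain the group differences. Outside the 9 genes, the pattern most like the mean of the 8 over the genotype libraries was that of 9530053A07Rik (Pearson correlation 0.98, at a mean of 1.09 normalised CPM), followed by Crip2, Thbs1 and Tent5c (0.958 each) and Ogg1 (0.957). Over the Senexin B libraries it was that of Gm14851, an alpha-defensin gene (0.98), followed by Slc22a15 (0.964), Piwil4 (0.939), Tbxas1 (0.937) and Gm46404 (0.935).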

How the data were processed

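The study's methods, written for the tamoxifen-treated organoids, give 50-base single-end reads. The read length of the Senexin B libraries was not checked here. The authors aligned the reads with STAR to GRCm38 with Ensembl release 93 annotation, and deposited 1 table of raw gene counts per library, with reads matching several genes left out. The processing notes give STAR 2.6.0c and GRCm38.p6. The deposited tables held 54146 genes and 36042777 to 42068649 reads per library. The reverse-strand column was used. It took 49.6% to 49.7% of stranded reads in the genotype libraries, which are in effect unstranded, so overlapping antisense reads cannot be told apart there, and 87.9% to 90.5% in the Senexin B libraries. Reads matching several places were 19.45% to 22.86% and 7.25% to 8.17%.

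Each experiment was fitted separately with edgeR 4.0.16 (filterByExpr, TMM, quasi-likelihood F test, Benjamini-Hochberg adjustment over all genes tested, threshold 0.05), after checks on simulated counts. Normalised CPM used the TMM library sizes. SE was the log2 fold change divided by the square root of F. The marker genes and lists were chosen with earlier results of these data known. Named list genes came mainly from the 3 with the lowest adjusted p among those passing in a comparison. Not all of these were named, and some others, passing or not, were named as well. The most alike genes were the 5 with the highest correlation. Same-numbered libraries deviated together in Senexin B against DMSO (correlations of at least 0.101 at 16 h and 0.137 at 24 h), so for these values with a replicate block stand beside results they change. Not every pair did in DMSO at 24 h against 16 h, where correlations ran from -0.05 to 0.366 (median 0.284). Libraries with different numbers had a median correlation of -0.063 there. Alternatives were DESeq2 1.42.0, other filters, the unstranded column, the compared groups alone and leaving out each library. Sequences came from RefSeq (GRCm38.p6) and GENCODE vM21 with Biopython 1.88. Proteins were not used here.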

Additional observations from a re-analysis of the deposited data

How the results depend on the processing

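Of the counts of Paneth cell genes passing the test, 128 stayed within 1.5 times their value and 17 did not. Of the single log2 fold changes under an alternative, 1069 kept direction and call, 34 lost the call, 29 gained it and 28 changed sign. None of the values that changed sign passed the test with or without the change. Leaving out 1 library at a time, 6 to 8 genes passed in Cdk8-/- and in the double knockout against WT, 7 to 8 in the double knockout against Cdk19-/-, 6 in Senexin B at 24 h, 1 to 4 at 16 h, 0 to 2 in DMSO at 24 h against 16 h, and 0 in the other comparisons. The highest shares of all genes passing were then 4.39% in Cdk8-/- and 15.4% in the double knockout against WT. They were 27.1% in the double knockout against Cdk19-/-, 24.2% in Senexin B at 24 h, 11.6% at 16 h and 14.6% in DMSO over time. In the other comparisons they were 0.165% to 5.28%. At 16 h the lowest count of Paneth cell genes, 1, came without Senexin B replicate 3. In DMSO over time, 0 passed without replicate 1 or 3 at 16 h or replicate 1 or 3 at 24 h.

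Without a filter on low counts, 5 genes passed at 16 h of Senexin B, 3 in the difference between the Senexin B effects and 3 in DMSO over time. Over all genes, 1413, 121 and 1862 of 28413 passed there. With the replicate block 5, 1 and 3 passed in those comparisons and 7 at 24 h, when 2293, 60, 3281 and 5712 of 15467 genes passed. In the genotype comparisons, where the numbers did not pair the libraries, the block left the counts at 8, 0, 8, 0, 7 and 0 and changed no call. Over all genes, 709, 0, 2628, 1, 3922 and 8 of 15602 passed there. In DMSO over time not every same-numbered pair deviated together (correlations of -0.05 to 0.366, median 0.284). The same held for the pairs behind the difference of effects (lowest -0.05). The block added Mmp7 (adjusted p = 0.0163) and Ang4 (adjusted p = 0.0262) in DMSO over time, when 3281 of 15467 genes passed against 1719. It added Defa30 (adjusted p = 0.0434) in the difference of effects, when 60 passed against 0. The DESeq2 Wald test gave 1 in the difference of effects and 2 in DMSO over time, when 67 of 11887 and 2258 of 12989 genes passed. Fitting only the groups compared gave 0 in DMSO over time, when 385 of 14995 genes passed. Omitting both libraries with WT-like Cdk19 gave 1 in Cdk19-/- against WT and 1 in the departure from the sum, when 666 and 728 of 15821 genes passed. In the double knockout against WT, Mmp7 (log2 fold change 0.90, adjusted p = 0.0916) and Defa24 (0.78, adjusted p = 0.089) then lost the call, when 3008 of 15821 genes passed. The cause of these shifts was not tested. Lyz2, at 0 to 16 counts per library, was below the filter on low counts.

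The log2 fold changes that changed sign ranged as follows over the left-out libraries. In Cdk19-/- against WT, Defa24 ran from -0.0434 to 0.235 and Defa30 from -0.174 to 0.0745. In the double knockout against Cdk8-/-, Lyz1 ran from -0.154 to 0.385, Mmp7 from -0.576 to 0.0322, Ang4 from -0.376 to 0.224, Defa17 from -0.457 to 0.108, Defa22 from -0.454 to 0.0618 and Defa30 from -0.475 to 0.0179. Defa17 stood at 0.0687 there when both libraries with WT-like Cdk19 were omitted. In the departure from the sum, Lyz1 ran from -0.00818 to 0.511, Mmp7 from -0.361 to 0.236 and Defa30 from -0.42 to 0.0543. At 16 h of Senexin B, Mmp7 ran from -0.169 to 0.158. In DMSO over time, Lyz1 ran from -0.0345 to 0.258 and Defa17 from -0.031 to 0.167.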

Other observations

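The alpha-defensins Defa2, Defa20 and Defa5 differed between the 2 experiments in whether they were counted at all. Defa2 and Defa20 had 0 counts in each of the 12 genotype libraries, and Defa5 had 2 counts in all of them together. In the Senexin B libraries Defa2 had 114 to 233 counts, Defa20 had 134 to 256 and Defa5 had 300 to 605. Of the 50-base windows of their GENCODE vM21 transcripts, none was unique to the gene for Defa2 and Defa20, and 1 of 327 was for Defa5. In DMSO from 16 h to 24 h, Defa5 rose by 0.52 (adjusted p = 0.0172, edgeR) and Defa20 by 0.48 (adjusted p = 0.0464) on the log2 scale. The column used was in effect unstranded in the genotype libraries and stranded in the Senexin B libraries. The read length of the Senexin B libraries was not checked, so 50-base windows may not describe their counts. The part of strand and of read length in the difference was not tested.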
